A study of Mus musculus with 24 samples.

Results

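The regions described here are mouse chromatin regions that were open in control progenitors and carried no called peak after editing with a guide RNA (gRNA) against Chd4 or with one against Smarca4. They were found in peak lists from ATAC-seq, an assay in which a transposase cuts accessible DNA. The cells were C57BL/6 lineage-negative bone marrow progenitors with Cas9 and wild-type Utx (Utx WT), and 4 groups of 2 libraries entered the comparison. Set A held the Chd4 gRNA libraries and its own empty-vector libraries, and set B held the Smarca4 gRNA libraries and its own empty-vector libraries. As another readout, 4 libraries of set B from Utx KO cells with Cas9 were used, 2 with the empty vector and 2 with the Smarca4 gRNA, together with ChIP-seq for PU.1 and H3K4me1 from Utx WT cells without a named vector. All ATAC-seq groups carried Cas9, and the sample names end in Chd4_1 for the first guide and Smarca4_2 for the second. The labels of set A describe 7 days in semi-solid medium and 5 days in liquid culture, with ATAC-seq 6 days after transduction, in a text that names Brg1 editing and not Chd4, while no culture times are given for set B in the sources used here. The labels do not say whether the 2 libraries of a group came from separate animals or cultures, so the spread between them may be technical, and they give no editing efficiency.

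Overlapping or adjoining peaks of the 4 empty-vector libraries were joined, which gave 72088 regions. Of these, 25537 had a peak in all 4 empty-vector libraries and are called control regions. A region was held in a gRNA library when at least 1 bp of it was covered by a peak of that library, and lost when no peak covered it. A Chd4-only region was lost in both Chd4 gRNA libraries and held in both Smarca4 gRNA libraries, and a Smarca4-only region was the reverse. There were 1694 Chd4-only regions and 189 Smarca4-only regions. A lost peak says that the caller listed nothing there, which is not a measure of how closed the chromatin was, and the lists carry no read counts, so depth is unknown.

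Chd4 encodes the ATPase of the NuRD complex, which moves nucleosomes and carries histone deacetylases, and is best known for limiting access to regulatory DNA, although it also acts at active enhancers and promoters. Smarca4 encodes Brg1, an ATPase of the BAF complex, which slides or evicts nucleosomes and keeps many enhancers accessible in blood progenitors. PU.1, an ETS transcription factor of myeloid and lymphoid cells, binds many of these enhancers, and H3K4me1 is a histone mark of enhancers and of the flanks of promoters. Utx, encoded by Kdm6a, is a histone demethylase that acts with the enzymes that write H3K4me1.

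Promoter sequence is printed for the widest region of each kind that had a promoter window, and for 1 more Smarca4-only region. The windows below run from 250 bases before to 50 bases after an annotated start, 5′ to 3′ on the gene's strand, from RefSeq on GRCm38.p6. Capitals mark a CCAAT box (CCAAT, or ATTGG where the match is on the other strand). Rictor, which encodes the defining subunit of the mTORC2 kinase complex, had the widest Chd4-only region, and its window is chr15:6708131-6708430 on the plus strand. Clec4e, which encodes the myeloid pattern receptor Mincle, had the widest Smarca4-only region with a promoter window, chr6:123289822-123290121 on the minus strand. C5ar2, which encodes a receptor for the complement peptide C5a, was chosen after its values were seen as another Smarca4-only promoter of an innate immune receptor, and its window is chr7:16244105-16244404 on the minus strand.
Rictor: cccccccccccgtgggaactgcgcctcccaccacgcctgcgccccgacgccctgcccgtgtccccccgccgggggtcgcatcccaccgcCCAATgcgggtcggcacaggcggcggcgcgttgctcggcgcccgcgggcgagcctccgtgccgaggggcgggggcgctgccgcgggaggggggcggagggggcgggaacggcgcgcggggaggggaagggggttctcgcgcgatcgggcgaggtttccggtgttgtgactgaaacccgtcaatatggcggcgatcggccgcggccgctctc
Clec4e: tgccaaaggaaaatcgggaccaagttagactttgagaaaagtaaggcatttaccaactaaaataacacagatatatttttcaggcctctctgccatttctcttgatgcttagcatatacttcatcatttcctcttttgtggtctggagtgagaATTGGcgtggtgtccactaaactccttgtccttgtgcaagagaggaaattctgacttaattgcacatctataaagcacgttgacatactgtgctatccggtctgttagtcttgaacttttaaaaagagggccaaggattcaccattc
C5ar2: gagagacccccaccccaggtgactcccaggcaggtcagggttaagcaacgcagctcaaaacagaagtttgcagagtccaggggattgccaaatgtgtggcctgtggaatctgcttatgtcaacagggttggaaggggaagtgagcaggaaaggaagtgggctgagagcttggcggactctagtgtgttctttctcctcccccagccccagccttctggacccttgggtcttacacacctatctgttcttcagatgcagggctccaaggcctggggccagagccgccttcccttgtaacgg
The Rictor window was 78.3% G and C, with a CpG ratio (observed over expected CpG dinucleotides) of 1.02. The Clec4e window was 40% G and C with a CpG ratio of 0.33, and the C5ar2 window 57% with a ratio of 0.16. Windows not printed show that these do not stand for their kinds. At the Chd4-only Rai14 region, 1 window was 48% G and C with a ratio of 0.29. At the Smarca4-only region of Ndrg2, 1 window was 67.7% with a ratio of 0.61. The Smarca4-only Smim6 region, at 739 bp wider than the C5ar2 region at 670.75 bp, had a window of 54.3% with 0.27. The letters CCGGAAG, an ETS motif, were on neither strand of these 3 windows. The same held for the AP-1 motif TGANTCA. The GATA motif AGATAA had no match either. Nor did GCGCATGC, an NRF1 motif.

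The number of regions lost differed widely between the 4 gRNA libraries. Chd4 gRNA replicate 1 lost 9.56% of the control regions and replicate 2 lost 27.4%, while the Smarca4 gRNA libraries lost 4.86% and 3.37%. Both Chd4 libraries were above both Smarca4 libraries, but they differed from each other by more than the lower of them differed from the Smarca4 libraries. The means were 18.5% ± 12.6 (SD, n = 2) and 4.12% ± 1.05 (SD, n = 2), with p = 0.33 by a two-sided exact permutation test, which is the smallest p that 2 libraries against 2 can give. The same p came from each of the 16 comparisons of libraries made here, and it was also 0.33 after Benjamini-Hochberg adjustment.

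List length moved with the loss. The Chd4 gRNA lists held 34429 and 24833 peaks, the Smarca4 gRNA lists 42015 and 46191, the empty-vector lists of set A 48687 and 41480, and those of set B 50845 and 50927. The shortest list, Chd4 gRNA replicate 2, lost the most regions, and the longest gRNA list, Smarca4 gRNA replicate 2, lost the fewest. When only the 4 gRNA lists were trimmed to their 24797 widest peaks, an alternative added after seeing the data, the libraries lost 24.1% and 27.4% with the Chd4 gRNA and 24.4% and 25.7% with the Smarca4 gRNA. At equal length there were 1349 Chd4-only and 1495 Smarca4-only regions, without the excess of Chd4-only regions. Trimming left Chd4 gRNA replicate 2 whole and dropped peaks narrower than 321 bp from replicate 1. From the Smarca4 gRNA lists it dropped peaks narrower than 437 and 473 bp. The similar losses thus follow in part from the trimming itself, and the cause of the excess in the full lists was not tested. With every list trimmed to the shortest, empty-vector lists included, which was planned, there were 207 Chd4-only and 78 Smarca4-only regions (log2 ratio 1.41), and the difference in percent lost fell from 14.37 to 3.07 percentage points. The 2 ways of equalising the lists thus gave different balances of the counts.

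**Figure D1:**
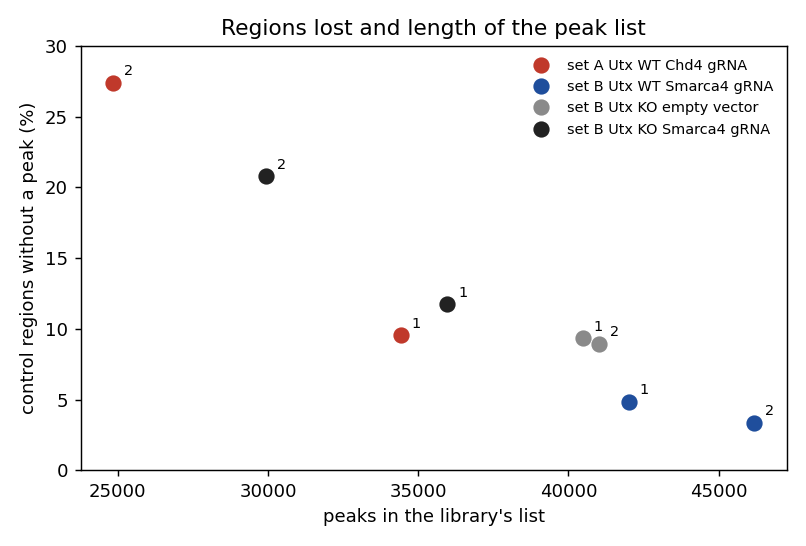
Percent of the 25537 control regions without a peak (y axis) against the number of peaks in the library's list (x axis), for the Utx WT gRNA libraries and, from the same set as the Smarca4 gRNA, the Utx KO libraries; each point is 1 library and the small digit is its replicate. The loss falls from 27.4% in the shortest list to 3.37% in the longest.

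Of the 25537 control regions, 69.4% were held in all 4 gRNA libraries. Chd4-only regions were 6.63% of the control regions, Smarca4-only regions 0.74%, and regions lost in all 4 libraries 0.693%, or 177 regions. Both Chd4 gRNA libraries had lost 8.52% and both Smarca4 gRNA libraries 2.17%, these counts including the 177. The other 5764 regions were lost in some libraries without fitting either kind, and 4363 of them were lost in Chd4 gRNA replicate 2 alone. Just outside the Chd4-only rule, 219 and 85 regions were lost in both Chd4 libraries and in 1 of the Smarca4 libraries. Just outside the Smarca4-only rule, 172 and 15 regions were lost in both Smarca4 libraries and in 1 of the Chd4 libraries.

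Single libraries set these counts. Without Chd4 gRNA replicate 1 there were 6057 Chd4-only and 204 Smarca4-only regions, and without Chd4 gRNA replicate 2 there were 1912 and 361. Leaving out the empty-vector replicate 2 of set A raised the Chd4-only count to 3892. The Smarca4-only count was 297 and 411 without the empty-vector replicates 1 and 2 of set B, and 311 and 438 without the Smarca4 gRNA replicates 1 and 2. In the 4 pairs of 1 Chd4 and 1 Smarca4 library, 2011 to 6476 regions were lost with the Chd4 gRNA and held with the Smarca4 gRNA, and 340 to 810 were the reverse.

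Regions lost with 1 guide also differed between the control libraries of the sets. At Chd4-only regions the median control peak was 319.5 bp wide in set A and 435.5 bp in set B, a median log2 ratio of set B over set A of 0.43. At Smarca4-only regions the widths were 556 bp in set A and 296.5 bp in set B, a median log2 ratio of -0.89, and the peak was narrower in set B at 179 of 189 regions (94.7%). Held regions had medians of 817 bp and 887.5 bp and a ratio of 0.09. Each kind therefore had its narrower controls in the set in which it was lost. Guide and set coincide in these data, so their effects cannot be told apart. Where the control widths of the sets lay within 1.5-fold of each other, 1007 regions were Chd4-only and 55 were Smarca4-only.

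**Figure D2:**
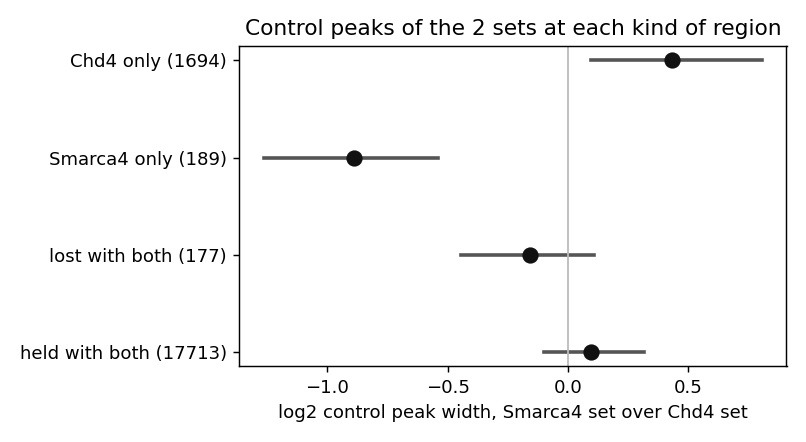
Log2 ratio of the control peak width in set B over set A (x axis) for the 4 kinds of region (y axis, number of regions in brackets); points are medians over regions and bars run from the lower to the upper quartile. Chd4-only regions lie to the right of 0, with a median of 0.43, and Smarca4-only regions to the left, with a median of -0.89.

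Loss was concentrated at narrow control peaks with both guides. Control regions were ranked by control width within the library's own set and split into 5 equal bins. The narrowest bin lost 35.6% and 76.4% of its regions in the Chd4 gRNA libraries and 21.1% and 15.3% in the Smarca4 gRNA libraries. In the widest bin, the Chd4 gRNA libraries lost 0.098% and 1.84%, and the Smarca4 gRNA libraries lost 0.02% and no region. Both Chd4 libraries were above both Smarca4 libraries in each of the 5 bins. At regions held by all 4 libraries, peaks with the Chd4 gRNA were also narrower than in their own controls, by a median log2 of -0.21 and -0.54, against -0.03 and 0.01 with the Smarca4 gRNA.

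**Figure D3:**
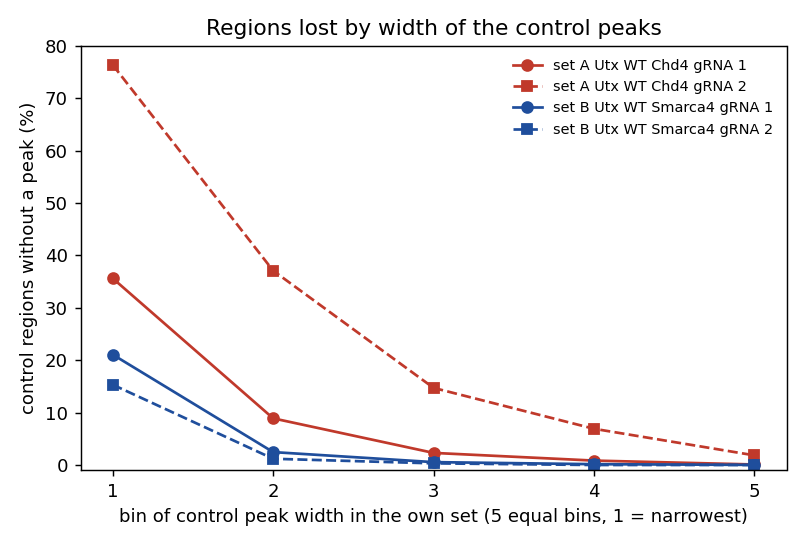
Percent of control regions without a peak (y axis) in 5 equal bins of control peak width in the library's own set (x axis, narrowest first), for the 4 Utx WT gRNA libraries; each line is 1 library. All lines fall from left to right, from 76.4% to 1.84% in Chd4 gRNA replicate 2 and from 15.3% to 0 in Smarca4 gRNA replicate 2.

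The widest Chd4-only regions lay in or at Rictor, Sema4d, Rai14, Pknox2 and Slc12a4. At the Rictor region (chr15:6707454-6709616, mm10), which covers the annotated gene start, the empty-vector peaks summed to 1180 and 797 bp in set A and 2163 and 1880 bp in set B. Neither Chd4 gRNA library had a peak there, the Smarca4 gRNA libraries had 1595 and 2227 bp, and all 4 Utx KO libraries had a peak. Sema4d encodes a semaphorin, a guidance ligand of immune cells, and its region (chr13:51791770-51793917) had 1551 and 796 bp in the controls of set A and 1711 and 1845 bp in those of set B. Rai14 encodes an actin-associated protein, Pknox2 a TALE homeobox factor and Slc12a4 a potassium and chloride cotransporter. All 5 regions had wider mean controls in set B than in set A.

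The widest Smarca4-only regions were assigned to Sik1, Dedd2, Dmrtb1, Clec4e and Rab27a. All 5 had a PU.1 peak in all 3 Utx WT ChIP libraries and an H3K4me1 island in both. The same was true of the Chd4-only regions at Rictor, Sema4d, Rai14 and Slc12a4, while the Pknox2 region met only the H3K4me1 criterion. Both criteria were met at 77.4% and 88.4% of all control regions in bins 4 and 5 of control width, the widest of 5. The region nearest Sik1 (chr17:31833908-31836300), which encodes a salt-inducible kinase, lay 7948 bp outside the gene. Its control peaks summed to 2103 and 2393 bp in set A but 522 and 457 bp in set B, and the Chd4 gRNA libraries had 1408 and 1171 bp. At the Clec4e region (chr6:123288950-123290291) the controls had 1320 and 1203 bp in set A and 287 and 802 bp in set B, the Chd4 gRNA libraries had 1061 and 1027 bp, and none of the 6 Smarca4 gRNA and Utx KO libraries had a peak. Rab27a encodes a GTPase that docks secretory granules, and its region had 1415 and 1257 bp against 452 and 428 bp in the controls of the sets. Set A controls were the wider ones at all 5 regions.

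**Figure D4:**
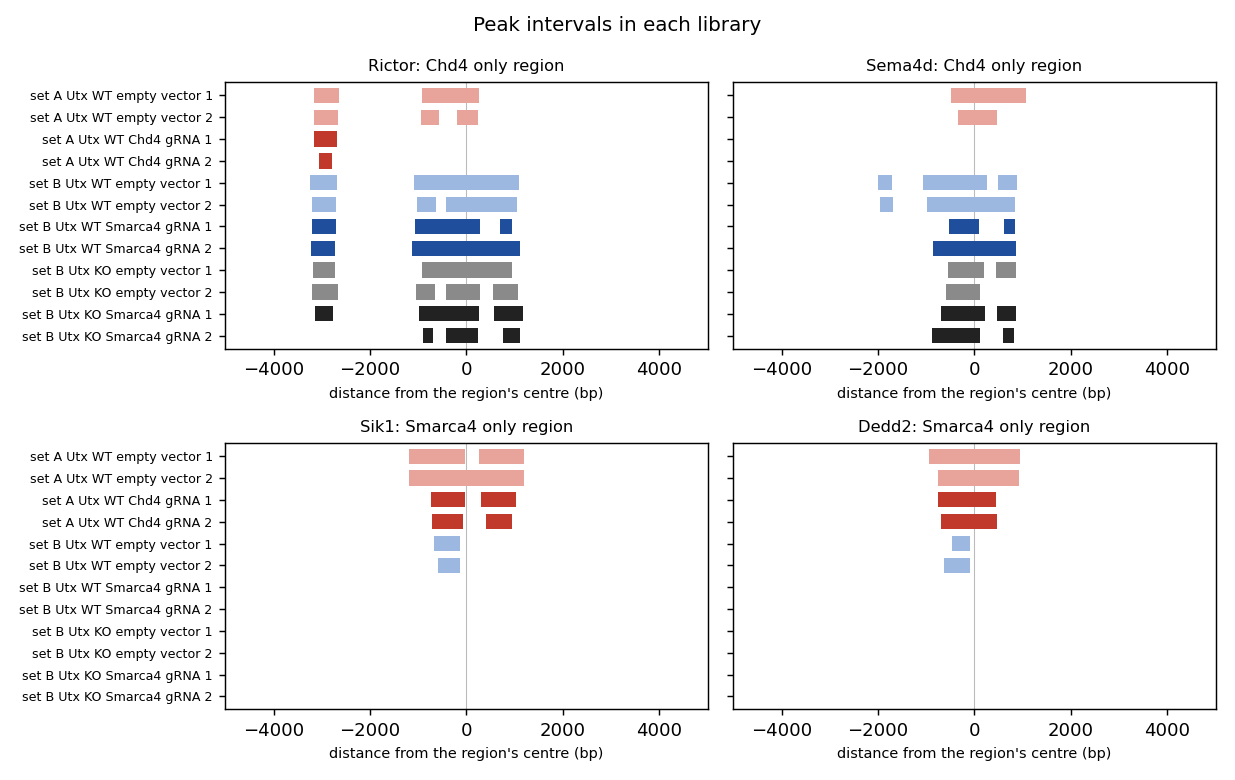
Peak intervals (bars) in 12 libraries (rows) around the widest Chd4-only regions, at Rictor and Sema4d, and the widest Smarca4-only regions, at Sik1 and Dedd2, by distance from the region's centre in bp (x axis). The Chd4 gRNA rows are empty over the regions at Rictor and Sema4d, the Smarca4 gRNA rows are empty at Sik1 and Dedd2, and the set B control bars at Sik1 and Dedd2 are shorter than those of set A.

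Chd4-only regions were assigned to 1490 of the 12021 protein-coding genes that were nearest to a control region, and Smarca4-only regions to 183 genes, 35 of which had both kinds. Most losses were single: 166 genes had 2 or more Chd4-only regions, 5 had 4, and 6 genes had 2 Smarca4-only regions. Ptger4, which encodes the EP4 receptor for prostaglandin E2, had 4 Chd4-only regions among 8 control regions, and the other 4 were held in all gRNA libraries. Nedd9, an adhesion scaffold, had 4 of 12, Akap13, an anchoring protein of protein kinase A, 4 of 19, the phosphodiesterase gene Pde4d 4 of 23, and the coactivator gene Zmiz1 4 of 24. Coro6, a coronin, and Unkl had 3 of 3, so neither gene had a held region. Gpr141 and Ssh1, which encodes a phosphatase of cofilin, had 3 of 6, and the water channel gene Aqp9 had 3 of 8. No gene of these 10 had a Smarca4-only region, a kind that made up only 0.74% of all control regions. The 10 came from 33 genes with 3 or more Chd4-only regions, with ties broken by share of the gene's control regions, then name. Haao and Uaca, also with 3 Chd4-only regions, each had 1 Smarca4-only region. Regions were assigned to the nearest gene at any distance, so a region counted for a gene need not lie at it. Of the Chd4-only regions of Ptger4, 1 lay within the gene and the others 103506, 144005 and 270032 bp away. Those of Uaca lay 127824 to 173989 bp away, while all 4 of Pde4d lay within the gene.

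Smarca4-only regions were 2 of 5 at Cmklr1, which encodes the chemerin receptor of macrophages and dendritic cells, and 2 of 5 at Enah, an actin regulator, and at Hlcs. They were 2 of 7 at Osbpl3, 2 of 9 at Iqsec1 and 2 of 13 at the Mediator gene Med13l. Ankrd23, Cd52, Cidea and Clec4e each had a single control region, which was Smarca4-only. They were among 18 genes whose control regions were all Smarca4-only, and are named here only because ties were broken by name. Cd52 encodes a small surface glycoprotein of leukocytes. Its region, 1909 bp from the gene, had 528 and 574 bp in the controls of set A, 407 and 243 bp in those of set B, 573 and 363 bp with the Chd4 gRNA, and no peak in any Smarca4 gRNA or Utx KO library. Haao, Uaca, Enah, Id2 and Iqsec1 had regions of both kinds: Haao and Uaca had 3 Chd4-only and 1 Smarca4-only region, and Id2, which encodes an inhibitor of helix-loop-helix factors, had 2 and 1 among 22. The Chd4-only regions assigned to Id2 lay 104168 and 359496 bp from the gene, and the Smarca4-only region 223643 bp from it. The 2 control regions at each of Chd4, Smarca4 and Kdm6a were held in all 4 gRNA libraries, which does not measure editing.

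Genes of the complexes themselves lost regions at shares near those of all control regions. Among 39 control regions at 15 NuRD and CHD genes, 3 were Chd4-only (7.69%), 1 each at Mta1, Chd3 and Mta3, and none was Smarca4-only. The Mta1 region covered the gene start, with controls of 322 and 327 bp in set A and 516 and 469 bp in set B. Among 50 control regions of BAF genes, 2 were Chd4-only, at Phf10 and Arid1b, and none was Smarca4-only. The share of all control regions was 6.63%. By library, the Chd4 gRNA lost 7.69% and 28.2% of the regions at NuRD and CHD genes and 8% and 24% of those at BAF genes, against 9.56% and 27.4% of all control regions.

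Lineage genes were described with lists written by hand. The labelled cells are progenitors, and control regions were assigned to all 16 mast cell and basophil genes, 22 of 25 monocyte and macrophage genes, 13 of 20 stem cell genes, 11 of 22 granulocyte genes, 15 of 21 megakaryocyte genes and 10 of 21 erythroid genes. Other cell types also had some: 6 of 17 B cell genes, 9 of 19 T and NK cell genes and 10 of 16 stroma and endothelium genes. Fewer genes had a region inside them or within 1 kb: 13 mast cell and basophil, 18 monocyte and macrophage and 10 stem cell genes. For granulocyte, megakaryocyte and erythroid genes the numbers were 10, 13 and 10. For B cell, T and NK cell, and stroma and endothelium genes they were 5, 6 and 6. Chd4-only regions were 4 of 24 at erythroid genes (16.7%), 4 of 27 at stroma and endothelium genes (14.8%) and 7 of 63 at megakaryocyte genes (11.1%), against 6.63% of all control regions. They were 2 of 19 at T and NK cell genes (10.5%), 3 of 34 at stem cell genes (8.82%), 4 of 62 at monocyte and macrophage genes (6.45%) and 4 of 64 at mast cell and basophil genes (6.25%). Lower shares were 1 of 23 at granulocyte genes (4.35%), 3 of 70 at GATA factors and their partners (4.29%), 1 of 38 at housekeeping genes (2.63%) and none of 13 at B cell genes. With so few regions a list, these shares are counts only. The 4 regions of the erythroid list were 2 at Bcl11a and 1 each at Sox6 and Tfrc. At Gp5 and Gp1ba, which encode platelet receptor subunits, the only control region was Chd4-only. Of the 63 control regions at megakaryocyte genes, however, 43 (68.3%) were held with both guides, against 69.4% of all control regions. A held region was present at 13 of the 15 genes. The Gp5 region (chr16:30308309-30309977) had 300 and 377 bp in the controls of set A and 1638 and 1614 bp in those of set B, and the Gp1ba region 424 and 327 bp against 1088 and 1174 bp. At the Chd4-only regions of Sox6 and Gata2, factors of erythroid and early progenitor programmes, set A controls had 288 and 393 bp and 394 and 492 bp, against 1184 and 1205 bp and 1681 and 1347 bp in set B. These 4 regions were thus narrower in set A than in set B in libraries without a Chd4 gRNA.

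Smarca4-only regions were 2 of 62 at monocyte and macrophage genes (3.23%), 2 of 70 at GATA factors and their partners (2.86%) and 2 of 104 at cell cycle genes, against 0.74% of all control regions, and each of the other 13 lists had at most 1. Shares that rest on 2 regions are counts only. Of the 62 monocyte and macrophage regions, 44 (71.0%) were held with both guides, against 69.4% of all control regions, and 19 of the 22 genes had a held region. The 2 Smarca4-only regions of that list lay at Itgax, an integrin of dendritic cells and macrophages, and at Ccr2, a chemokine receptor of monocytes. The Ccr2 region had 886 and 869 bp in the controls of set A, 333 and 254 bp in those of set B, and 278 and 299 bp with the Chd4 gRNA. Hdc, which encodes the enzyme that makes histamine, had 1 Smarca4-only region, with 874 and 836 bp against 477 and 629 bp in the controls. Itgax also had a Chd4-only region, so a single gene could carry regions of both kinds. By chromosome, 23 of the 189 Smarca4-only regions were on chromosome 5 (12.2%, against 6.23% of the control regions), which was singled out after the values were seen.

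Most regions of both kinds lay away from gene ends. A gene start or end of the annotation lay within 1 kb of 15.1% of Chd4-only regions (95% exact binomial interval 13.4 to 16.9) and of 11.6% of Smarca4-only regions (7.44 to 17.1), against 49.2% of regions held with both guides and 39.2% of all control regions. Intervals here cover counting error over regions only. The share follows control width: in the narrowest of 5 equal bins of all control regions it was 9.96%, 6.74%, 13.8% and 11.3% in the same order. By library, 14.9% and 17% of the regions lost with the Chd4 gRNA were at gene ends, against 12.9% and 10.3% with the Smarca4 gRNA, with p = 0.33 by the exact permutation test. The groups did not overlap, but the difference of 4.30 percentage points was 2.14 where the control widths of the sets were within 1.5-fold and -0.048 when each guide was set against its own 2 controls. It was larger, at 15.86 when a peak had to cover 50% of a region, 14.76 with the widest 50% of each list and 11.20 with every list trimmed to the shortest.

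Promoter windows were covered by 124 windows in Chd4-only regions and by only 6 in Smarca4-only regions, which belonged to Smim6, Ndrg2, Clec4e, C5ar2 and Cyp4f18. The ETS motif CCGGAAG was in 4.84% of the Chd4-only windows, in none of the 6, in 22% of the 9366 windows in held regions and in 11.6% of all 21263 windows. The CCAAT box was in 30.6% of the Chd4-only windows, 39.8% of the held ones and 38.2% of all. The AP-1 motif was in 8.06% of the Chd4-only, 4.11% of the held and 6.99% of all windows. The GATA motif was in 8.06%, 5.30% and 9.65%, and the NRF1 motif in 2.42%, 6.36% and 3.52%, in the same order. A match is a run of letters and not a bound site. The median CpG ratio was 0.66 in Chd4-only, 0.30 in Smarca4-only, 0.81 in held and 0.57 in all windows, so Rictor is at the CpG-rich end of its kind.

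PU.1 binding differed between the kinds. A PU.1 peak in all 3 Utx WT ChIP libraries overlapped 60.6% of Chd4-only regions (58.3 to 63.0), 87.8% of Smarca4-only regions (82.3 to 92.1), 89.2% of held regions and 82.8% of all control regions. By library, 62.7% and 66.6% of the regions lost with the Chd4 gRNA had PU.1, against 74.5% and 78.4% with the Smarca4 gRNA, with p = 0.33 by the exact permutation test. In the narrowest of the 5 bins the shares were 58.2% of 1114 Chd4-only, 84.3% of 89 Smarca4-only, 75.7% of 1115 held regions and 67.4% of all 5109 regions. PU.1 also moved with the balance of the controls, since among held regions it was at 96.0% of those with controls over 1.5-fold narrower in set B and at 73.9% of those with controls over 1.5-fold wider in set B. Within 1.5-fold, the shares were 62.4% of 1007 Chd4-only, 78.2% of 55 Smarca4-only and 90.7% of held regions, and the difference between the libraries went from -11.75 to -2.54 percentage points. It was -1.07 when a peak had to cover 50% of a region and -5.86 with the widest 50% of each list. With each guide set against its own set's controls alone, the order of the libraries turned: 64.5% and 67.6% of the regions lost with the Chd4 gRNA had PU.1, and 40.4% and 42.5% with the Smarca4 gRNA. The control regions of the sets already differed in the same direction, at 80.1% for set A and 64.1% for set B.

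H3K4me1 islands of both Utx WT ChIP libraries overlapped 70.4% of Chd4-only, 85.2% of Smarca4-only, 83.1% of held and 80.6% of all control regions. By library the shares of lost regions were 70.9% and 74.4% with the Chd4 gRNA and 77.5% and 79.0% with the Smarca4 gRNA (p = 0.33, exact permutation test), and the difference of -5.59 percentage points was 9.11 against each set's own controls, -2.06 within 1.5-fold, -2.34 with 50% cover and -0.97 with only the gRNA lists trimmed. Counted the same way, with PU.1 required in all 3 libraries and H3K4me1 in both, neither criterion was met at 16.8% of Chd4-only and 3.70% of Smarca4-only regions, against 3.93% of held regions.

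The kinds also differed in Utx KO progenitors, whose libraries were not used to choose the regions but belong to set B. Other set B libraries, those with the Smarca4 gRNA, were used to choose them. Chd4-only and held regions had to have a peak in both of these, and Smarca4-only regions had to have none. The same order in more libraries of that set is therefore no independent support. Whether it came from the set or from Utx was not tested. The Utx KO empty-vector libraries had a peak at 83.4% and 83.9% of Chd4-only regions but at 19.05% and 20.6% of Smarca4-only regions. At regions held with both guides they had a peak at 96.1% and 96.5%, and at all control regions at 90.7% and 91.1%. Thus 141 of the 189 Smarca4-only regions (74.6%) had no peak in either Utx KO empty-vector library, in cells that had received no Smarca4 gRNA, against 182 of 1694 Chd4-only regions (10.7%). By library, the mean over the 2 Utx KO empty-vector lists was 74.2% and 82.3% of the regions lost with the Chd4 gRNA and 35.3% and 31.1% of those lost with the Smarca4 gRNA, a difference of 45.0 percentage points between groups that did not overlap (p = 0.33, exact permutation test). Regions lost with both guides were low as well, at 28.8% and 26.0%.

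The share of regions with a peak in Utx KO cells also rose with control width in set B, so it was read within bins of that width. In the narrowest of 10 equal bins of control regions by set B width, 200 to 347.5 bp, the Utx KO empty-vector libraries had a peak at 17.5% and 19.7% of 137 Smarca4-only regions, 72.9% and 70.8% of 428 Chd4-only regions, and 65.6% and 67.7% of 535 held regions. In the next bin they had a peak at 20.6% of 34 Smarca4-only regions in both libraries, and at 79.6% and 81.7% of 995 held regions. With control widths within 1.5-fold, the values were 20% and 29.1% of 55 Smarca4-only regions and 80.4% and 79.9% of the Chd4-only regions. At equal length of the gRNA lists the Smarca4-only regions, then 1495, had a peak in 62.1% and 63.2%, and the 1349 Chd4-only regions in 95.3% and 95.5%. The Utx KO lists were not trimmed there. Of the 1495 regions, 141 were Smarca4-only with the full lists, and of the 1349 regions, 535 were Chd4-only with the full lists. Trimming dropped Smarca4 gRNA peaks narrower than 437 and 473 bp, so these values are not like for like. The Utx KO lists were compared with the same Utx WT empty-vector lists as the gRNA lists, since control regions are defined by them. Bins of width do not remove the choice of each kind by the Smarca4 gRNA libraries of the same set.

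The Smarca4 gRNA in Utx KO cells left peaks at 8.47% and 2.65% of the Smarca4-only regions, below both Utx KO empty-vector libraries, a difference of -14.3 percentage points (p = 0.33, exact permutation test). It also left fewer at Chd4-only regions, 77.4% and 53.6%, a difference of -18.1 percentage points, and at held regions, 95.1% and 89.8%. The Utx KO Smarca4 gRNA lists were shorter, with 35975 and 29930 peaks against 40477 and 41024, so list length moved with these differences. With every list trimmed to the shortest, which also changes the regions of each kind, the differences were -5.77 percentage points at Smarca4-only and -5.56 at Chd4-only regions. Of the 27 Smarca4-only regions with a peak in both Utx KO empty-vector libraries, 16 had none in either Utx KO Smarca4 gRNA library and 4 had one in both.

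**Figure D5:**
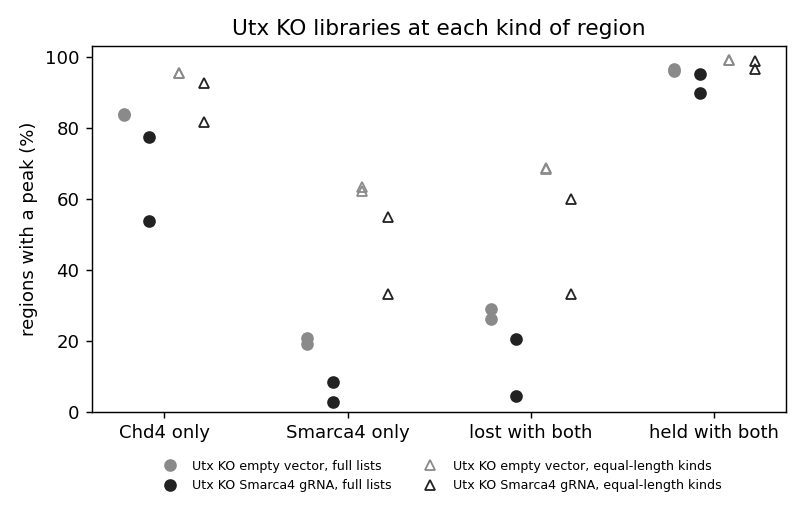
Percent of regions with a peak (y axis) in the 2 Utx KO empty-vector (grey) and 2 Utx KO Smarca4 gRNA (black) libraries at the 4 kinds of region (x axis); each symbol is 1 library, circles use the full gRNA lists and triangles the kinds found with gRNA lists of equal length. The Utx KO empty-vector circles lie at 83.4% and 83.9% for Chd4-only and at 19.05% and 20.6% for Smarca4-only regions, and the triangles at 95.3% and 95.5% and at 62.1% and 63.2%. The Utx KO lists were at full length for circles and triangles alike.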

How the data were processed

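Peak intervals were measured by ATAC-seq in 8 Utx WT libraries of the comparison and 4 Utx KO libraries, and by ChIP-seq for PU.1 (3 libraries) and H3K4me1 (2 libraries) in Utx WT cells. The authors deposited lists of intervals on mm10 without read counts; Bowtie, Bowtie2, MACS2 and SICER are named in the submitters' processing notes, and the names of the set A lists carry a p-value threshold of 1e-9, per the deposited names, while none is stated for set B. Depth is therefore unknown. Intervals on the 21 main chromosomes were merged and overlapped by at least 1 bp with numpy 2.4.6 and pandas 2.3.3. Shares per library were tested by exact permutation of the library labels, two-sided (scipy 1.17.1), with 16 tests in the family. The merging and overlap steps were tested on simulated lists. Regions were assigned to the nearest of 21887 RefSeq protein-coding gene spans (GRCm38.p6, the assembly behind mm10). Promoter windows were those of 17492 genes. Named genes were the targets, the 10 genes with most regions of each kind, the 5 widest regions of each kind, 5 genes with both kinds and up to 3 genes from each of 16 lists, and the text gives those that bear on a comparison. The members, lists and tests were chosen with earlier results of these data known. Alternatives changed merging, overlap, list length, chromosomes, controls and libraries. The labels do not pair replicate numbers across sets.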

Additional observations from a re-analysis of the deposited data

How the results depend on the processing

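10 results were recomputed under 18 alternatives, and 147 of 171 values were classed as kept. Counts were kept when within 1.5-fold, and the log2 ratio when its direction held and it moved by at most 1.41. That limit was the SD over pairs of single gRNA libraries. All other results were classed on direction alone, so a kept difference could be far smaller. The difference in percent lost was classed as kept at 0.66 percentage points with only the gRNA lists trimmed, against 14.37 in the full lists. The exact permutation test of 2 libraries against 2 could not pass a threshold, so its p says nothing about stability. Chd4-only and Smarca4-only counts were 2544 and 120 when a peak had to cover 50% of a region, 818 and 77 with the widest 50% of each list, 207 and 78 with every list trimmed to the shortest, and 1007 and 55 where the control widths of the sets were within 1.5-fold. The log2 ratio of the counts was 3.16 in the full lists and 1.41 with every list trimmed. With only the gRNA lists trimmed there were 1495 Smarca4-only regions and the log2 ratio reversed to -0.15; trimming sets the list lengths equal by construction. Against each set's own controls, the Chd4 minus Smarca4 difference reversed for gene ends (-0.048 percentage points), PU.1 (24.59) and H3K4me1 (9.11); the cause was not tested. Leaving out 1 library gave 1764 to 6057 Chd4-only regions, 194 to 438 Smarca4-only regions and log2 ratios of 2.02 to 4.89. Taking same-numbered libraries as a replicate block gave means of 6067 and 953 regions. That fit needs 1 library instead of 2 to lack a peak and takes control regions from 1 empty-vector library of each set. The differences between replicates 1 and 2 correlated at -0.019 between the Chd4 and Smarca4 gRNA libraries. This compares the sets with each other only, and cannot show whether same-numbered libraries within a set are pairs, which was not tested. Unknown depth limits every loss: a missing peak may be an unlisted weak one. The 2 alternatives on balance and on gRNA list length were chosen after seeing the data.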
